A study of Mus musculus with 6 samples.

Results

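The sarcomere structure genes described here are 48 genes for the contractile unit of striated muscle, apart from its myosin heavy chains and troponins, in C2C12 myotubes exposed to sugarcane top ethanolic extract (STEE). They were named by symbol, and each of the 48 had 1 probe set, with no second symbol, among the 22206 probe sets of the array. Total RNA was measured on 6 Clariom S Mouse arrays, which read most genes with 1 probe set each. The groups were untreated myotubes (Ctrl-M), myotubes given 30 µg/mL STEE (STEE30-M) and myotubes given 50 µg/mL STEE (STEE50-M), with 2 arrays in each. C2C12 is a mouse skeletal muscle myoblast line, cultured in 2% horse serum to fuse into myotubes, and all cells were on day 6 of this differentiation. STEE was given for 6 h in serum-free Opti-MEM. The extract had been dissolved in ethanol before it was diluted. The titles of the Ctrl-M samples give no time, and the sources used here name neither the medium of Ctrl-M during those 6 h nor a solvent control. The extract, its solvent and the change of medium therefore cannot be told apart. The study calls the samples biological replicates while its design text speaks of duplicates, so every p-value below measures only the spread between these arrays. Both concentrations were set against the same 2 Ctrl-M arrays.

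A sarcomere is built of thin filaments of actin and tropomyosin, anchored in the Z-disc by α-actinin, and thick filaments of myosin, joined in the middle by the M-band. Titin spans from Z-disc to M-band as a spring and ruler, and nebulin runs along the thin filament. Chaperones and assembly factors fold myosin and protect the proteins around the Z-disc, desmin links neighbouring myofibrils, and some Z-disc and I-band proteins also act in stretch signalling. C2C12 cells switch on these genes as they fuse, and their myotubes hold an immature, partly embryonic set of isoforms.

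All values are log2 signals as deposited, and a difference of 1 is a doubling on that scale. The authors' own group averages lie on a narrower scale, with a slope of 0.528 on the array means of the members in Ctrl-M, so a difference here is larger than it would be there. Array medians lay between 5.70 and 5.77, and any pair of arrays correlated at 0.991 to 0.994 across probe sets. A background level of 5.32 was taken from 1482 probe sets for odorant, vomeronasal and taste receptors (their 95th percentile). Of the 48 members, 42 had a mean above it. *Mybpc2*, *Myoz1*, *Myoz3*, *Tmod4*, *Synm* and *Cmya5* did not, and their values are given as signals near background. The myotube label held on every array, with all 8 myotube markers above background, among them *Myog* at 14.50 to 15.24 and *Tmem8c*, the fusion protein myomaker, at 16.41 to 17.22. Genes of the other marker lists had signal as well. Of 8 markers of reserve cells and myoblasts 7 were above background (*Pax7*, at 4.96 to 5.72, was not), as were all 5 of dividing cells and all 5 of fibroblasts. On the fibroblast list *Lum* averaged 5.69, close to background, and whether the culture held fibroblasts was not tested. In bulk RNA of this kind, fewer cells of a type and less RNA per cell cannot be told apart.

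**Figure D1:**
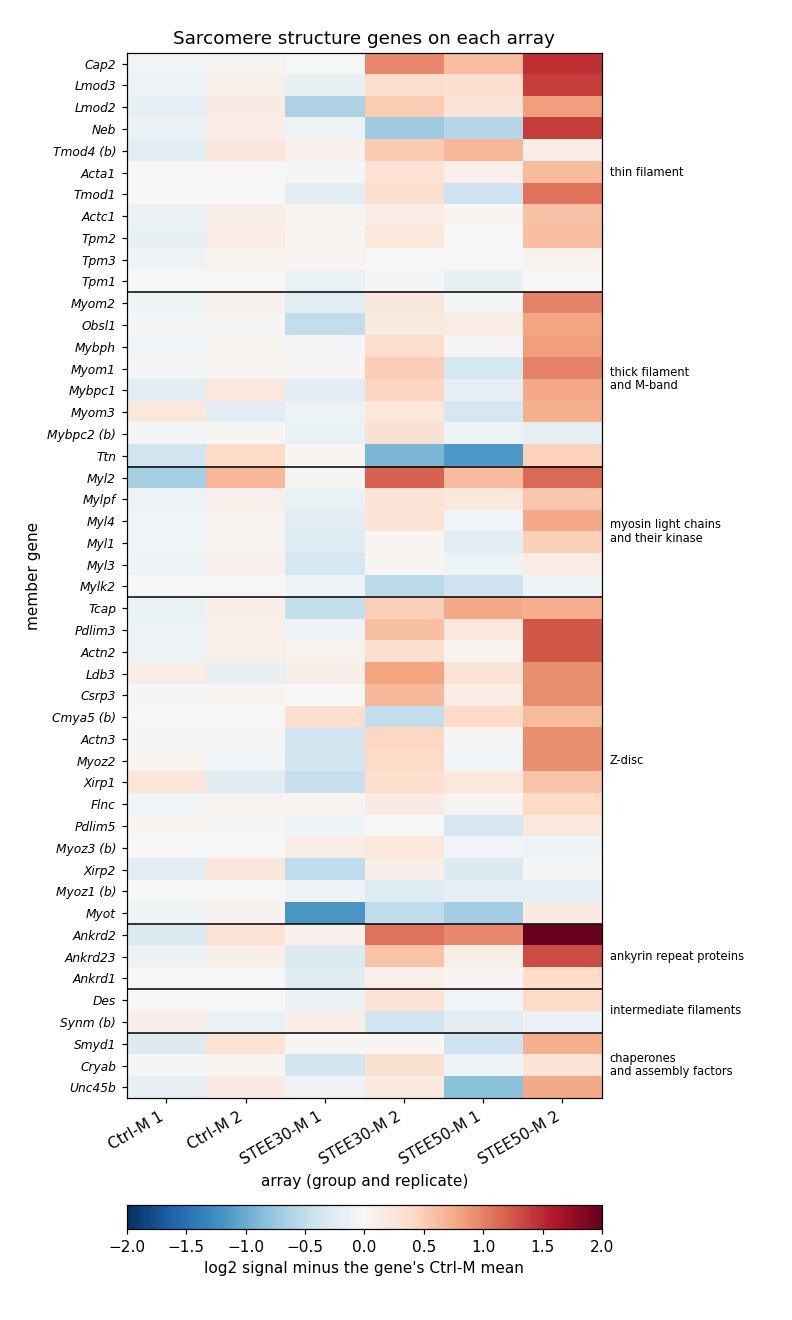
Each row is a member and each column an array, coloured by the log2 signal minus the mean of that gene on the 2 Ctrl-M arrays, with horizontal lines between structural roles and (b) marking the 6 members not above background. STEE50-M replicate 2 is the highest array for 36 of 48 members, while STEE30-M replicate 1 is above both Ctrl-M arrays for 3.

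The members' values differed between the 2 arrays of each treated group. STEE50-M replicate 2 was the highest array for 36 of 48 members (75%, against 17% of all probe sets), and 39 of them lay above both Ctrl-M arrays there. On STEE50-M replicate 1, from the same treatment, 14 members lay above both Ctrl-M arrays and 20 below both. STEE30-M split the same way, with 3 above and 25 below on replicate 1 and 33 above and 8 below on replicate 2. Across all probe sets, 33.2% to 34% lay above both Ctrl-M arrays on each treated array, and 34.6% to 36.7% below both. On STEE50-M replicate 1 the share of members below both was 41.7%, against 36.7% of all probe sets. The median member stood at -0.09 and 0.27 from its Ctrl-M mean on the STEE30-M arrays, and at -0.02 and 0.67 on the STEE50-M arrays. Replicate 2 exceeded replicate 1 for 38 of 48 members in Ctrl-M (median gap 0.10), for 41 in STEE30-M (0.42) and for 44 in STEE50-M (0.62). Over all probe sets the median gap lay between -0.01 and 0.01.

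Markers of cell state differed between the same arrays. The 8 myotube markers averaged 14.66 and 14.80 in Ctrl-M, 14.63 and 14.95 in STEE30-M, and 14.80 and 15.44 in STEE50-M, so that STEE50-M replicate 2 was again the highest, for 8 of 8 genes. *Myh3* and *Tnnt3* in that list are themselves sarcomere genes. The 5 markers of dividing cells went the other way, at 11.90 and 11.90 in Ctrl-M, 12.14 and 11.59 in STEE30-M, and 12.10 and 11.70 in STEE50-M. Those of reserve cells and myoblasts averaged 9.96 and 9.87, then 10.02 and 9.91, then 10.19 and 9.72. The 9 genes of the non-muscle cytoskeleton stayed between 15.96 and 16.17, and the 5 fibroblast genes between 10.87 and 11.14. No gene of these 4 non-myotube lists passed the study thresholds in any comparison. The part of cell state in the members' values was not tested.

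**Figure D2:**
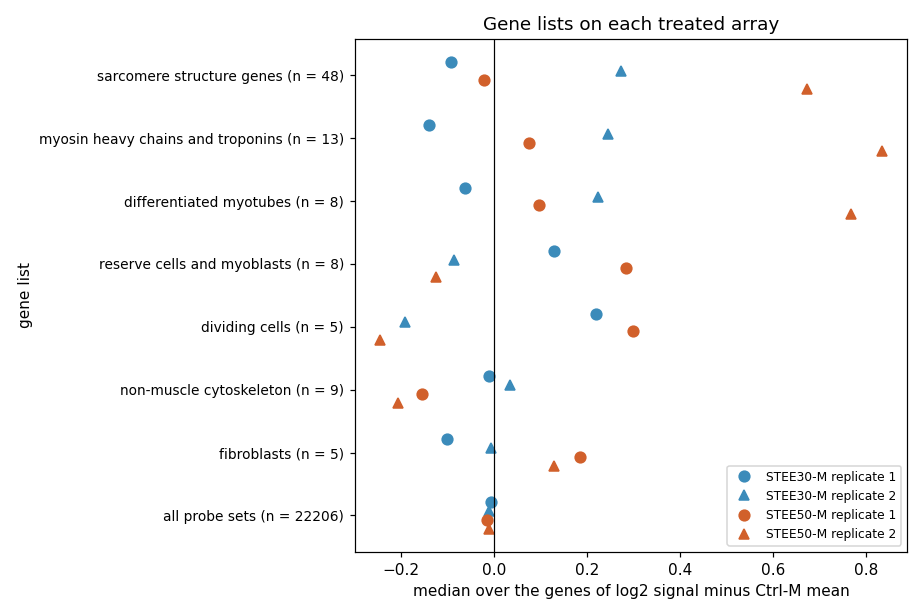
The x axis is the median, over the genes of a list, of log2 signal minus the Ctrl-M mean, and each row is a list with its number of genes; colours mark the concentration, circles replicate 1 and triangles replicate 2. The sarcomere structure genes, the myosin heavy chains with troponins and the myotube markers have STEE50-M replicate 2 farthest to the right, where the dividing-cell markers have it farthest to the left.

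At 50 µg/mL, 4 of the 48 members passed the study thresholds above Ctrl-M (an unadjusted p under 0.05 in limma and a linear fold of at least 1.2), and none passed below it. They were *Ankrd2*, a stretch-responsive ankyrin repeat protein that binds titin, *Cap2*, which binds actin and promotes filament turnover, *Lmod3*, a leiomodin that nucleates actin at thin filament ends, and *Tcap*, telethonin, which caps the amino terminus of titin in the Z-disc. These are 8.33% of the members, where 2.36% of all probe sets passed above and 2.69% below. The median log2 difference of the members was 0.33 (all probe sets -0.01), with 37 above 0 and 11 below, from -0.35 for *Ttn* to 1.56 for *Ankrd2*. In 13 members both STEE50-M arrays lay above both Ctrl-M arrays, and in 4 both lay below, against 16.1% and 18.6% of all probe sets. After Benjamini-Hochberg adjustment over all probe sets by limma, 0 members and 0% of all probe sets had an adjusted p under 0.05, and 0.952 was the smallest. Without STEE50-M replicate 2 the median was -0.02, 0 members passed above Ctrl-M and 2 passed below, *Ttn* and *Unc45b*, where 2.87% of all probe sets passed above and 2.79% below. Without STEE50-M replicate 1 it was 0.67, and 20 passed above (41.7% of the members, against 2.67% of all probe sets).

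**Figure D3:**
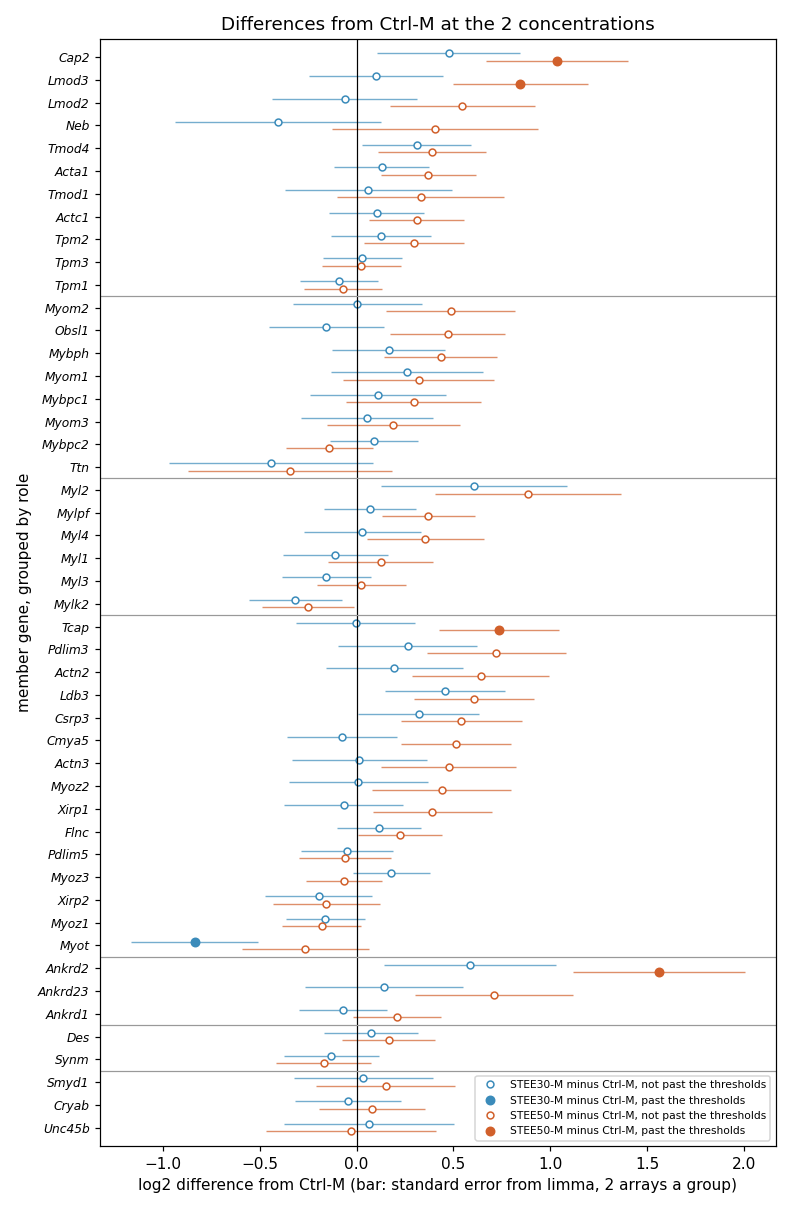
Points are log2 differences from Ctrl-M and bars their standard errors from limma (2 arrays a group), with members grouped by role and filled points past the study thresholds. At 50 µg/mL *Ankrd2* (1.56), *Cap2*, *Lmod3* and *Tcap* are filled, at 30 µg/mL *Myot* (-0.83), and the points of all other members are open.

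*Ankrd2* lies on chromosome 19 from 42035917 to 42045111 (GRCm38). Its signal was 6.98 and 7.55 in Ctrl-M, 7.35 and 8.35 in STEE30-M, and 8.23 and 9.42 in STEE50-M. Both STEE50-M arrays were above both Ctrl-M arrays, while STEE30-M replicate 2 lay above STEE50-M replicate 1. The log2 difference was 1.56 (standard error 0.44, adjusted p = 0.952 from limma) at 50 µg/mL and 0.58 (0.44) at 30 µg/mL, and the direct difference between the concentrations was 0.98 (adjusted p = 0.997, limma) and did not pass the study thresholds. Without STEE50-M replicate 2 the difference from Ctrl-M was 0.96 and no longer passed. Among the 4, *Ankrd2* alone kept passing when either Ctrl-M array was left out.

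*Cap2* (chromosome 13, 46501903 to 46650281) was at 11.42 and 11.52 in Ctrl-M, 11.46 and 12.43 in STEE30-M, and 12.08 and 12.93 in STEE50-M. Thus 3 of the 4 treated arrays exceeded both controls, and STEE30-M replicate 1 lay between them. The log2 difference was 1.03 at 50 µg/mL (standard error 0.37, adjusted p = 0.952, limma) and 0.47 at 30 µg/mL. Without STEE50-M replicate 2 it was 0.61 and did not pass.

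*Lmod3* (chromosome 6, 97238530 to 97253217) was at 10.93 and 11.14 in Ctrl-M, 10.88 and 11.39 in STEE30-M, and 11.35 and 12.41 in STEE50-M. The groups Ctrl-M and STEE50-M did not overlap, and STEE50-M replicate 1 lay within the STEE30-M range. The log2 difference at 50 µg/mL was 0.84 (standard error 0.35, adjusted p = 0.952, limma) and 0.31, short of the thresholds, without STEE50-M replicate 2. Between the concentrations it was 0.74 (standard error 0.35) and did not pass.

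*Tcap* (chromosome 11, 98383811 to 98384953) differed from these in that its STEE50-M arrays were alike. It was at 5.64 and 5.92 in Ctrl-M, 5.30 and 6.25 in STEE30-M, and 6.53 and 6.50 in STEE50-M. Its STEE50-M arrays lay above the other 4 arrays, at a signal close to background. The log2 difference from Ctrl-M was 0.73 (standard error 0.31, adjusted p = 0.952, limma), and it was 0.75 and 0.72 without STEE50-M replicate 2 or 1, which did not pass on the arrays left. Nor did it pass without Ctrl-M replicate 1 or 2 (0.59 and 0.88), or after quantile normalization of the deposited values (0.74).

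**Figure D4:**
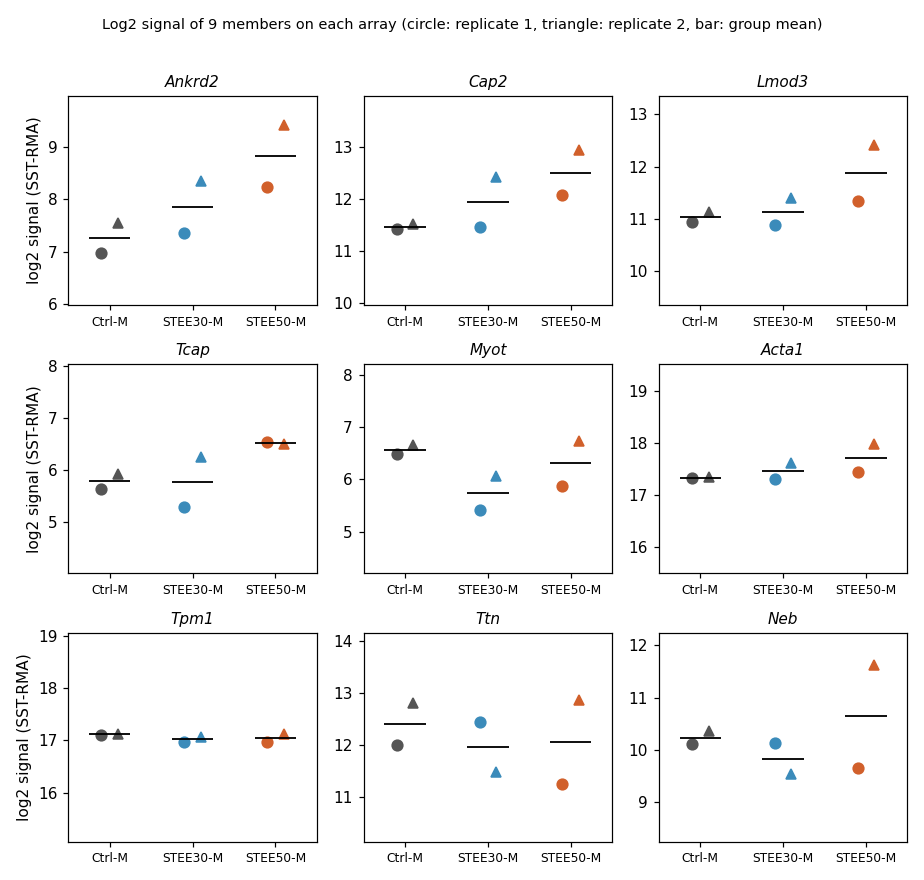
Each panel is a member, with the log2 signal of each array as a circle (replicate 1) or triangle (replicate 2), the group mean as a bar, and a y axis of the same span, 4 log2 units, in every panel. *Tcap* has its 2 STEE50-M arrays together (6.53 and 6.50), *Tpm1* is level on all 6 arrays (16.97 to 17.12), and *Ttn* and *Neb* have their STEE50-M replicates farthest apart.

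Promoter sequence was at hand for part of the members only. RefSeq promoters (build GRCm38.p6, 250 bases before to 50 after the start) covered 37 of the 48 genes, 44 promoters in all. Of the 4 called at 50 µg/mL they covered *Ankrd2* and *Cap2*, and *Lmod3* and *Tcap* were not analysed here. These are printed beside *Acta1*, skeletal α-actin, whose promoter is a standard example of muscle control, and *Tpm1*, a tropomyosin whose signal was level. Capitals mark E-boxes (CANNTG, bound by MyoD-type factors), the MCAT motif (CATTCC, bound by TEAD factors), the TATA box (TATAAA), and matches to the MEF2 and CArG (serum response factor) motifs, on either strand.

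Ankrd2 (chr19:42035777-42036076, plus strand): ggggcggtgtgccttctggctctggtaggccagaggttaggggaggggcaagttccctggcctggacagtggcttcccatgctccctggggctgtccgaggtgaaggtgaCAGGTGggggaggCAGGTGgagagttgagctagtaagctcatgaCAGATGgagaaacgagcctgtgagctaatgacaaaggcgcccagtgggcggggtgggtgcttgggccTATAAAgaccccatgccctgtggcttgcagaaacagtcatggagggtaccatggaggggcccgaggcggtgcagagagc
Cap2 (chr13:46501653-46501952, plus strand): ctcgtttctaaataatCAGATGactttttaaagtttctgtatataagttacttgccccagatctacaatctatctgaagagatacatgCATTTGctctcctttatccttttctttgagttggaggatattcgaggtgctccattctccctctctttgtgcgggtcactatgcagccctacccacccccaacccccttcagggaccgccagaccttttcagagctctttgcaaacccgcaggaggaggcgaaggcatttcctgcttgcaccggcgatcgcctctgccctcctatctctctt
Acta1 (chr8:123894726-123895025, minus strand): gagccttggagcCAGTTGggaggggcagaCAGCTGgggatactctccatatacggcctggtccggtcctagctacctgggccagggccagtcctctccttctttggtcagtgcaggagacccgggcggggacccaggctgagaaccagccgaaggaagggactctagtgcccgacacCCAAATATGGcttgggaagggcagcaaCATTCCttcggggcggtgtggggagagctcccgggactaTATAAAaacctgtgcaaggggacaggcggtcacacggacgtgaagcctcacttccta
Tpm1 (chr9:67049164-67049463, minus strand): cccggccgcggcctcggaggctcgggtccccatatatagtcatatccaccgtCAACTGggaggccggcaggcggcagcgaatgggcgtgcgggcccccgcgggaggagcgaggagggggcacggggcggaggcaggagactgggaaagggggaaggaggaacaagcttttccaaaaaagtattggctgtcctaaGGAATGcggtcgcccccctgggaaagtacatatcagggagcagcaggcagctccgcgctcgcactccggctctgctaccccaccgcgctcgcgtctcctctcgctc

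The *Ankrd2* window holds 3 E-boxes and a TATA box that begins 29 bases before the start, and the *Cap2* window 2 E-boxes and none of the other motifs. The *Acta1* window holds 2 E-boxes, a CArG box at -73, an MCAT motif at -46 and a TATA box at -7. The *Tpm1* window holds an E-box and an MCAT motif at -56. All positions count from the RefSeq start, which was not checked against other evidence. Over the 44 member promoters, an E-box was found in 79.5% (72.3% of all 32851 promoters) and its CAGCTG form, which overlaps it, in 31.8% (16.3%). MCAT was found in 31.8% (14.7%), TATAAA in 18.2% (13.6%), a MEF2 motif in 9.09% (3.19%) and a CArG box in 13.6% (1.63%). The members with a CArG box were *Acta1*, *Actc1*, *Myl3*, *Myom1* and *Ldb3*, none of which passed the study thresholds. The 2 promoter windows of *Ldb3* overlap and hold the same CArG site, which these shares count in both. The MCAT site of *Flnc* is likewise counted in both of its overlapping windows. A match is a description of these letters and not a bound site.

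The 11 thin filament genes had a median log2 difference of 0.37 at 50 µg/mL and of 0.10 at 30 µg/mL, and *Cap2* and *Lmod3* passed at the higher concentration. *Acta1* (17.33 and 17.34 in Ctrl-M) was at 17.31 and 17.62 in STEE30-M and at 17.44 and 17.97 in STEE50-M, a log2 difference of 0.37 (standard error 0.25) at 50 µg/mL. *Actc1*, cardiac α-actin and the main early isoform of developing skeletal muscle, was at 14.18 and 14.43 in Ctrl-M, 14.36 and 14.46 in STEE30-M and 14.34 and 14.89 in STEE50-M. The STEE50-M arrays of *Acta1* were thus above both of its controls, and those of *Actc1* overlapped them. *Tpm1* was at 17.11 and 17.12 in Ctrl-M, 16.98 and 17.07 in STEE30-M and 16.97 and 17.12 in STEE50-M, a log2 difference of -0.07 (standard error 0.20). *Tpm3*, which encodes a further tropomyosin, differed by 0.03 (0.20) and *Tpm2* by 0.29 (0.26). Of the pointed-end proteins, *Lmod2* was at 0.55 (0.37) with its STEE50-M arrays above both controls, the capping protein *Tmod1* at 0.33 (0.43), and *Tmod4*, near background, at 0.39 (0.28).

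*Neb* had the lowest value of the thin filament genes, relative to their controls, on STEE30-M replicate 2. Nebulin signal was 10.11 and 10.36 in Ctrl-M, 10.13 and 9.53 in STEE30-M, and 9.66 and 11.62 in STEE50-M. Its lowest array, STEE30-M replicate 2, was one on which 33 members lay above both controls. Its 2 STEE50-M arrays differed by 1.96, and its log2 difference of 0.40 at 50 µg/mL carried a standard error of 0.53.

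The 8 genes of the thick filament and M-band, titin among them, had a median log2 difference of 0.31 at 50 µg/mL and of 0.07 at 30 µg/mL, and none passed the thresholds. *Ttn*, titin, was at 12.01 and 12.81 in Ctrl-M, 12.45 and 11.49 in STEE30-M, and 11.26 and 12.87 in STEE50-M. As with *Neb*, STEE30-M replicate 2 and STEE50-M replicate 1 lay below both controls. Its log2 difference was -0.44 (standard error 0.53) at 30 µg/mL and -0.35 (0.53) at 50 µg/mL. *Mybph*, which encodes myosin binding protein H, was at 15.46 and 15.56 in Ctrl-M, 15.49 and 15.86 in STEE30-M, and 15.54 and 16.35 in STEE50-M. *Myom1*, the M-band protein myomesin, was at 10.53 and 10.62, then 10.60 and 11.07, then 10.23 and 11.56. Both had STEE50-M replicate 2 on top and STEE50-M replicate 1 near or below the controls, with log2 differences of 0.43 (0.29) and 0.32 (0.39). *Obsl1*, which encodes a titin-binding M-band protein, was at 7.42 and 7.46 in Ctrl-M, 6.95 and 7.62 in STEE30-M, and 7.59 and 8.23 in STEE50-M. Its STEE50-M arrays were above both controls (log2 difference 0.47, standard error 0.30). *Myom2*, *Mybpc1* and *Myom3* were at 0.48, 0.29 and 0.19 without passing, and *Mybpc2* lay near background.

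Of the 5 myosin light chains and the skeletal light chain kinase *Mylk2*, none passed, with a median of 0.24 at 50 µg/mL and -0.04 at 30 µg/mL. *Mylpf*, the fast regulatory light chain, was at 17.33 and 17.54 in Ctrl-M, 17.30 and 17.71 in STEE30-M, and 17.64 and 17.97 in STEE50-M, above both controls by a log2 difference of 0.37 (standard error 0.24). *Myl4*, the embryonic and atrial light chain, was at 15.87 and 15.97, then 15.70 and 16.20, then 15.87 and 16.68. Its STEE50-M arrays overlapped the controls. *Myl2*, the slow and ventricular regulatory chain, was at 0.60 (0.48) and 0.88 (0.48) at the 2 concentrations, but its controls were 1.32 apart (6.26 and 7.58). *Mylk2* ran the other way, at 5.66 and 5.67 in Ctrl-M, 5.58 and 5.12 in STEE30-M and 5.25 and 5.58 in STEE50-M. All 4 treated arrays were below both controls at a signal near background, and the differences of -0.32 and -0.25 (standard error 0.24) did not pass.

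The 15 Z-disc genes had a median log2 difference of 0.44 at 50 µg/mL and of 0.01 at 30 µg/mL, with *Tcap* past the thresholds at the higher concentration and *Myot* at the lower. *Actn2*, the α-actinin that crosslinks actin in the Z-disc, was at 12.38 and 12.57 in Ctrl-M, 12.55 and 12.79 in STEE30-M, and 12.52 and 13.71 in STEE50-M. Its log2 difference of 0.64 (standard error 0.35) came with 1 STEE50-M array inside the control range. *Pdlim3*, a PDZ and LIM domain partner of α-actinin, was at 13.92 and 14.13, then 13.95 and 14.63, then 14.23 and 15.26. *Ldb3*, another such partner, was at 11.10 and 10.81, then 11.07 and 11.75, then 11.23 and 11.89. Both had their STEE50-M arrays above the controls, with log2 differences of 0.72 (standard error 0.36) and 0.60 (standard error 0.31) that did not pass. *Csrp3*, the muscle LIM protein, was at 8.38 and 8.47, then 8.42 and 9.07, then 8.58 and 9.35, a log2 difference of 0.54 (0.31) without overlap. *Actn3*, *Myoz2* and *Xirp1* were at 0.47, 0.44 and 0.39, *Flnc* (filamin C) at 0.23, and *Pdlim5* and *Xirp2* at -0.06 and -0.15. *Cmya5*, which encodes the large α-actinin partner myospryn, was at 4.54 and 4.53 in Ctrl-M, 4.87 and 4.05 in STEE30-M, and 4.93 and 5.17 in STEE50-M, at background on every array. *Myoz1* and *Myoz3* were near background too.

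The 3 genes of the ankyrin repeat family, which bind titin in the I-band, had positive differences at 50 µg/mL, with a median of 0.71. Beside *Ankrd2*, *Ankrd23* was at 0.71 (standard error 0.41), with STEE50-M replicate 1 inside the control range. *Ankrd1*, which also acts in the nucleus, was at 15.81 and 15.78 in Ctrl-M, 15.55 and 15.90 in STEE30-M, and 15.85 and 16.16 in STEE50-M. Its 2 control arrays were nearly equal, and STEE50-M lay above them by a log2 difference of 0.21 (0.23).

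Of the 5 genes for intermediate filaments, chaperones and assembly factors, none passed the thresholds. *Des*, desmin, was at 15.19 and 15.21 in Ctrl-M, 15.08 and 15.47 in STEE30-M, and 15.15 and 15.58 in STEE50-M (log2 difference 0.17, standard error 0.24). *Cryab*, a small heat shock protein of the Z-disc, was at 13.83 and 13.91, then 13.48 and 14.17, then 13.77 and 14.13 (0.08, standard error 0.27). In both genes each treated group straddled the controls. *Unc45b*, a chaperone of myosin, was at 6.74 and 7.06, then 6.83 and 7.10, then 6.08 and 7.66, so that its 2 STEE50-M arrays were the lowest and the highest of the 6 (-0.03, standard error 0.44). *Smyd1*, a methyltransferase of myofibril assembly, was at 0.15 (0.36), and *Synm*, synemin, lay near background.

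At 30 µg/mL, *Myot* was the 1 member past the study thresholds, and it was below Ctrl-M. *Myot* encodes myotilin, a Z-disc protein that binds α-actinin and filamin. Its signal was 6.49 and 6.65 in Ctrl-M, 5.41 and 6.06 in STEE30-M, and 5.87 and 6.74 in STEE50-M. Both STEE30-M arrays lay below both controls, while the STEE50-M arrays spanned them. The log2 difference was -0.83 (standard error 0.33, adjusted p = 0.998, limma) at 30 µg/mL and -0.26 (0.33) at 50 µg/mL. Without STEE30-M replicate 1 it was -0.51 and did not pass, nor did it without Ctrl-M replicate 1 (-0.92) or Ctrl-M replicate 2 (-0.76).

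The other 47 members did not pass at 30 µg/mL, where 2.04% of all probe sets passed above Ctrl-M and 2.06% below. The median of the members was 0.04 (all probe sets -0.01), with 30 above 0 and 18 below. *Flnc* and *Myoz3* had both STEE30-M arrays above both controls, and *Myoz1*, *Tpm1*, *Mylk2* and *Myot* had both below, against 14.5% and 15.8% of all probe sets. The largest positive differences by moderated t were those of *Ldb3* (0.45, standard error 0.31), *Ankrd2* and *Cap2*. The adjusted p was under 0.05 for 0% of all probe sets (limma), and its smallest value was 0.998. The median was 0.27 without STEE30-M replicate 1, where *Cap2* and *Ldb3* passed above Ctrl-M (4.17% of the members, against 2.98% of all probe sets), and -0.09 without STEE30-M replicate 2.

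Set directly against each other, STEE50-M exceeded STEE30-M for 41 of 48 members, with a median of 0.23 (all probe sets -0.01). *Tcap* passed the study thresholds (0.74, standard error 0.31, adjusted p = 0.997, limma), where 2.25% of all probe sets passed above and 2.36% below. The call was lost in 5 of the 6 fits that left out 1 array. The value was 0.27 without STEE30-M replicate 1, 0.73 and 0.76 without STEE50-M replicate 1 or 2, and 0.74 without either Ctrl-M array, and it was 1.22 and passed without STEE30-M replicate 2. Both STEE50-M arrays lay above both STEE30-M arrays for *Tcap* and *Cmya5* and below them for *Myoz3*, against 13.5% and 14.9% of all probe sets. No adjusted p was under 0.05 (0%, limma). The other 47 members did not pass, and among them *Obsl1*, next in moderated t after *Ankrd2* and *Lmod3*, was at 0.63 (standard error 0.30). Without STEE50-M replicate 1 the median was 0.64 and 17 members passed above STEE30-M (35.4% of them, against 2.75% of all probe sets). Without STEE50-M replicate 2 the median was -0.06 and *Unc45b* alone passed, below STEE30-M, as did 2.39% of all probe sets.

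Genes outside the 48 were described from 3 further lists. Of all probe sets, 2.36% passed above Ctrl-M and 2.69% below at 50 µg/mL, and 2.04% above and 2.06% below at 30 µg/mL. STEE50-M replicate 2 was the highest array for 17% of all probe sets and for 21.8% of those above background. Of 13 myosin heavy chains and troponins, all above background, 2 passed above Ctrl-M at 50 µg/mL and none below, with a median of 0.49 and all 13 above 0. They were the embryonic *Myh3* (0.64, standard error 0.24) and the fast *Myh2* (0.54, standard error 0.23). STEE50-M replicate 2 was the highest array for 13 of 13, and at 30 µg/mL none passed (median 0.07). Of 25 other Z-disc, M-band and assembly genes, *Synpo2l* (0.77, standard error 0.31) and *Hspb7*, a small heat shock protein (0.82, standard error 0.35), passed above Ctrl-M at 50 µg/mL, with a median of 0.20, and STEE50-M replicate 2 was the highest array for 19 of 25. *Fhod3*, a formin that elongates thin filaments, passed below Ctrl-M at 30 µg/mL (-0.71, standard error 0.27) and was at -0.47 at 50 µg/mL without passing. Of 10 transcription factors that act on sarcomere genes, *Mef2d* passed above Ctrl-M at 50 µg/mL (0.76, standard error 0.28), and the other 9, *Myod1* and *Srf* among them, did not. The median of all 10 was 0.34, and STEE50-M replicate 2 was the highest array for 3 of them.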

How the data were processed

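Total RNA of C2C12 myotubes was read on 6 Clariom S Mouse arrays, and groups and replicate numbers were taken from the sample labels. The authors deposited log2 signals with 2 decimals, made by SST-RMA over the 6 arrays together (Affymetrix Expression Console 1.4.1.46 per the file headers, Transcriptome Analysis Console 4.0 per the methods). The series value table held the same values (173076 of 173076). Tables of the authors' averages, folds, p-values and FDRs were not used, apart from gene symbols and a check of scale. In Ctrl-M the members' averages there span 2.68 to 12.14, where the array means span 3.93 to 17.43 (slope 0.528), so folds here are on the wider scale of the arrays.

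The 6640 control rows were dropped, and 22206 probe sets entered the fit without a filter (R 4.3.3, limma 3.58.1; lmFit, contrasts.fit and eBayes on 3 group means; prior degrees of freedom 5.75, residual 3), for 3 comparisons, two-sided, with Benjamini-Hochberg adjustment over all of them. The study thresholds were an unadjusted p under 0.05 and a fold of at least 1.2, read as linear although the methods word it as log2. On the wider scale of the arrays this fold is a looser limit than on the authors' averages. The p came from limma and not from the study's ANOVA. Standard errors refer to log2 differences. The number of arrays limits the precision, and an exact test of 2 arrays against 2 cannot go below p = 0.333. Values on every array were given for members past the thresholds, the 5 with the largest moderated t in each comparison and a set of 16 covering the structural roles. A few other values (*Myl2*, *Tpm2*, *Lmod2* and the like) were chosen after they were seen. The members and lists were chosen with earlier results of these data known. The fits were tested on simulated data. Promoters were searched with Python 3.11.15 and pandas 2.3.3. Alternatives were other normalizations, filters, variance priors, fold limits and array subsets, the replicate number as a block, and leaving out each array. Proteins of the members were not analysed here.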

Additional observations from a re-analysis of the deposited data

Results flagged for a closer look

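*Tcap* differed between the 2 concentrations in the direct comparison of STEE50-M with STEE30-M. Its log2 difference of 0.740 passed the study thresholds, with both STEE50-M arrays above both STEE30-M arrays, but not the adjustment over all probe sets (adjusted p = 0.997 from limma). The call was lost in 5 of the 6 fits that left out 1 array, all but the fit without STEE30-M replicate 2. No other member passed in that comparison, and no explanation was tested.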

How the results depend on the processing

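Counts of members past the study thresholds depended on the fit. Without moderation they were 0 in all 3 comparisons, where the moderated fit had 1 at 30 µg/mL, 4 at 50 µg/mL and 1 between the concentrations. A variance prior that follows the signal gave 8 in STEE50-M against Ctrl-M and 3 between the concentrations, all higher (16.7% and 6.25% of the members, against 2.33% and 2.07% of all probe sets). Quantile normalization gave 3 in STEE50-M against Ctrl-M, without *Tcap*, all higher (6.25% of the members, against 2.6% of all probe sets). Between the concentrations it gave 2 (4.17%, against 2.46% of all probe sets), where a fit of the arrays compared alone gave 0. A linear fold of at least 1.5 changed none of the 3 counts. Members with both arrays above numbered 6 after quantile normalization and 10 after centring on probe sets above background in STEE30-M against Ctrl-M (otherwise 2), and 4 and 4 between the concentrations (otherwise 2). With centring, 2 lay below between the concentrations (otherwise 1). Non-overlap of all probe sets was not counted after quantile normalization or centring, so these counts have no share beside them. With members near background left out, the counts were 1 above in STEE30-M against Ctrl-M, 1 below in STEE50-M against Ctrl-M (otherwise 4), and 1 above and 0 below between the concentrations. Of the 12032 probe sets above background, 1554, 2162, 1639 and 1540 lay so, in that order. The same-numbered replicates did not deviate together across all probe sets (correlations of 0.023, 0.064 and -0.008). Most members, however, were higher on replicate 2 at every concentration: 38 of 48 without STEE, 41 at 30 µg/mL, 44 at 50 µg/mL. Of all probe sets, 48.7% to 50.2% were. Whether the replicate numbers pair the samples for the members was not tested. With the replicate block the counts were 3 at 30 µg/mL (2 higher and 1 lower, against 2.01% and 2.13% of all probe sets), 7 at 50 µg/mL and 6 between the concentrations, all higher (against 2.49% and 2.44%). Leaving out each array in turn, with its group's lone array assumed to vary like the other groups, gave 0 to 2 members in STEE30-M, 1 to 20 in STEE50-M and 0 to 17 between the concentrations, with medians of -0.09 to 0.27, -0.02 to 0.67 and -0.062 to 0.645. Non-overlap was not counted with an array left out. All other settings kept each median within 0.324 of the value reported, the spread between replicate arrays. Of 2142 values for single members and settings, 1916 kept their direction and side of the thresholds. Another 133, not past the thresholds in the reported fit, changed sign, whether or not they then passed. With the direction kept, 66 newly passed and 27 no longer passed. Direction could not change in settings that altered only the variance estimate, the probe sets fitted, the fold limit or a group not compared. The number kept is thus partly fixed in advance.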
